A study of Mus musculus with 82 samples.

Results

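The genes described here are the 152 dispersed zinc finger genes of the mouse autosomes. They are the protein-coding genes on chromosomes 1 to 19 of GRCm38 (mm10) whose symbol is Zfp followed by digits alone and whose next gene of that kind lies more than 100 kb away, measured between gene bodies. They were 152 of 360 genes with such symbols, and of 20560 autosomal protein-coding genes; the other 208 have a neighbour of the same kind within 100 kb. The rule itself uses gene symbols and gene positions and no peak.

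The study used mouse embryonic stem cells from the hybrid 129-C57BL/6 background, grown without further treatment in 2i medium with LIF, which holds them in the pluripotent state. The values used here are 2 lists of chromatin immunoprecipitation peaks. The 15026 Adnp peaks are tied to 3 replicates of wild-type cells that carry Adnp FlagAvi, and the 2047 HP1γ peaks to 3 replicates of Cbx3 FlagAvi cells and 3 of Cbx3 FlagAvi cells with Adnp KO. FlagAvi is a tag that carries biotin and is pulled down on streptavidin beads. The HP1γ list holds only peaks without the Adnp motif, and the names of its peaks point to the Adnp KO cells, so the genotype in which a given HP1γ peak was seen is not known here. Each list pools its replicates, so no value below has an error between replicates, and depth is unknown.

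Zinc finger proteins of the Zfp family mostly carry tandem C2H2 fingers, loops of amino acids folded around a zinc ion that read DNA bases. Many have a KRAB box that recruits the corepressor Trim28 and, through it, H3K9 methylation and HP1. In mammals such genes multiplied by tandem duplication and most lie in clusters, while the dispersed ones include old, conserved regulators with single copies. The symbol rule is wider than the C2H2 fold, since Zfp36 encodes a CCCH protein that binds RNA. It is also looser than the word dispersed: 7 of the 152 genes have another gene with a zinc finger symbol or synonym within 100 kb. Examples are Zscan21 next to Zfp113, Zkscan5 next to Zfp655 and Zfp119a next to Zfp959. Zinc finger genes without such a name were not searched for, so more of the 152 may have one nearby. With a limit of 200 kb to the next Zfp gene, 134 genes remain, 8 of them with an HP1γ peak in place of 11. Adnp, itself a zinc finger and homeodomain protein, forms the ChAHP complex with Chd4 and HP1. HP1γ, encoded by Cbx3, is known to bind H3K9-methylated chromatin, including that over clustered zinc finger genes.

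Adnp peaks reached into the promoter windows of a few of these genes, and those windows are shown because they are the promoters for which the bases under a peak can be read. RefSeq promoter windows (250 bases before to 50 after a start, GRCm38.p6) were matched for 121 of the 152 genes, 163 windows in all. An Adnp peak overlapped 5 windows of 4 genes (3.07%), against 1.25% of 20085 windows of protein-coding genes, a description without a test. No HP1γ peak overlapped any of the 163. The windows below read 5′ to 3′ on the plus strand, which is the strand of all 4 genes, and capitals mark the bases inside the deposited Adnp peak. Only the peak of Zfp839 covers the start site of its window; those of Zfp184, Zfp639 and Zfp638 end upstream of it. Zfp839 is at chr12:110850029-110850328, with 189 bases under a peak of score 25.1. Zfp184 is at chr13:21944844-21945143, with 78 bases under a peak of score 14.98; a second start of Zfp184 lies 6 bases further on and is not shown. Zfp639 is at chr3:32510342-32510641, with 173 bases under a peak of score 12.5. Zfp638 is at chr6:83914103-83914402, an internal start of that gene, with 181 bases under a peak of score 7.00. Another Adnp peak inside Zfp638, at 83893739 to 83894182, scored 34.3.
Zfp839 promoter: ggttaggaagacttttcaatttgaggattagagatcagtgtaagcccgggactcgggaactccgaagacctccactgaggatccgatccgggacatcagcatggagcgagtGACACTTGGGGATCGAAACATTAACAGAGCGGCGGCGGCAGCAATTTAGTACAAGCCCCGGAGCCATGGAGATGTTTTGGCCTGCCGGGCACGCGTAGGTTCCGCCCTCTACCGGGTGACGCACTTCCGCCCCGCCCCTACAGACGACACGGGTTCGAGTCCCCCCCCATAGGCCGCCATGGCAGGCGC
Zfp184 promoter: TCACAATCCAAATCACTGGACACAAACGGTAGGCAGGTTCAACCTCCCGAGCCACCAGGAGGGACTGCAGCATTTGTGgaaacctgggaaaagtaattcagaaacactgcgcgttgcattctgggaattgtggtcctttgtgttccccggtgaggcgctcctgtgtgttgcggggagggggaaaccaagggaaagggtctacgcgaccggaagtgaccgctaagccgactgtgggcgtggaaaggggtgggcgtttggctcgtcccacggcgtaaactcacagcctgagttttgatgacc
Zfp639 promoter: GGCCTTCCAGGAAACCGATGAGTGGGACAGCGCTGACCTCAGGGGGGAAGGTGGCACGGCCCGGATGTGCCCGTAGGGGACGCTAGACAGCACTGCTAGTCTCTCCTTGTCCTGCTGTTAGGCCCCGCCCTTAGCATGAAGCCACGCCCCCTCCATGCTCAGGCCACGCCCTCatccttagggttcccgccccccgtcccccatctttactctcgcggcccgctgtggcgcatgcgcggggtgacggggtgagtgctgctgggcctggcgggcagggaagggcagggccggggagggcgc
Zfp638 promoter: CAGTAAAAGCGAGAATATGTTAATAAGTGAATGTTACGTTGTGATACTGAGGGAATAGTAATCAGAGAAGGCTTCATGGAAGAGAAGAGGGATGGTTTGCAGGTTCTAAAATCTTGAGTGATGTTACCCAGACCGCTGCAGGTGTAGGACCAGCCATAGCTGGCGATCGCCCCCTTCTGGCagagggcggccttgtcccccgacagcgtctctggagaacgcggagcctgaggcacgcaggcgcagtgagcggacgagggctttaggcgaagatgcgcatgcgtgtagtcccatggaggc
All 4 windows hold the letters CCCTC or their reverse complement, from which the insulator protein CTCF takes its name, and so do 70.2% of the windows of protein-coding genes and 72.4% of those of dispersed zinc finger genes. The GC box letters GGGCGG, searched on both strands, were in the windows of Zfp839, Zfp639 and Zfp638 and not in that of Zfp184, against 47.0% of protein-coding windows. The windows of the 152 genes had a median GC content of 58.3% with 17 CpG dinucleotides, those of all protein-coding genes 57.0% with 14, and those of the clustered zinc finger genes 53.2% with 11.

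Adnp peaks were about as frequent at dispersed zinc finger genes as at protein-coding genes in general. Of the 152 genes, 49 (32.2%, 95% Wilson interval 25.3% to 40.0%) had at least 1 Adnp peak inside the gene or within 5 kb of its ends; the share among all autosomal protein-coding genes was 30.4%. The clustered zinc finger genes gave 31.7% (66 of 208). With peaks that touch the gene itself the count was 28 of 152 (18.4%, 13.1% to 25.3%), against 21.5% of all genes, and the remaining 21 genes had peaks outside alone. The 84 peaks at these genes were all different, so no peak was counted for more than 1 member. They came to 10.3 per Mb of gene and flank (95% Poisson interval 8.18 to 12.7), where protein-coding genes together gave 8.62 and clustered zinc finger genes 13.5 (10.8 to 16.7). In the 5 kb flanks the density was 20.4 per Mb (13.9 to 28.9) and inside the genes 7.95 (5.96 to 10.4). All protein-coding genes showed the same order, with 16.3 in the flanks and 7.53 inside.

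HP1γ peaks were fewer, and their whole list is shorter, with 2047 peaks against 15026 for Adnp. The dispersed zinc finger genes held 0.802% of the autosomal HP1γ peaks and 0.564% of the autosomal Adnp peaks. At least 1 HP1γ peak lay inside or within 5 kb of 11 of the 152 genes (7.24%, 95% Wilson interval 4.09% to 12.5%). The share was 4.06% for all autosomal protein-coding genes and 9.13% (19 of 208, 5.93% to 13.8%) for the clustered zinc finger genes. Inside the gene the counts were 8 of 152 (5.26%, 2.69% to 10.0%) and 2.98% of all genes. The 16 HP1γ peaks made 1.95 per Mb (95% Poisson interval 1.12 to 3.17), where protein-coding genes gave 0.852 and clustered zinc finger genes 4.25 (2.80 to 6.18). These intervals cover counting error only, and neighbouring peaks are not independent. No test over genes was made, so no difference from the background is claimed. Both kinds of peak lay at 6 genes (3.95%, 1.82% to 8.34%; background 2.38%), Adnp peaks alone at 43 and HP1γ peaks alone at 5, and 98 had neither.

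The genes with HP1γ peaks were Zfp11, Zfp160, Zfp169, Zfp36, Zfp407, Zfp592, Zfp629, Zfp706, Zfp936, Zfp938 and Zfp951. Among them Zfp936 on chromosome 7 (43114166 to 43192109) stood out by number, with 3 HP1γ and 6 Adnp peaks, all inside the gene limits. The nearest listed start of Zfp936 is internal, and its first and second HP1γ peaks were centred 46.9 and 2.70 kb upstream of that start. Its Adnp peaks lay from 46.8 to 4.59 kb upstream of it, except the last, 9.25 kb past it. The counts by position below use the 5′ limit of the gene as the start. The next Zfp gene to Zfp936, Zfp715, lies 104.4 kb away and has no peak, so this pair of members is the nearest to the 100 kb limit. Just beyond that limit, Zfp605 and Zfp932 lie 97.8 kb apart on chromosome 5, and Zfp605 has 1 Adnp peak and 2 HP1γ peaks while Zfp932 has none. The first HP1γ peak of Zfp936, at 43130371 to 43131018, covered the whole of an Adnp peak at 43130657 to 43130963 with a score of 10.2. The second, at 43174761 to 43175015, lay 1.56 kb from an Adnp peak at 43172805 to 43173203 with a score of 12.7. The third, at 43190457 to 43191056, was centred 1.35 kb inside the 3′ end and lay 3.45 kb from an Adnp peak with a score of 27.0. The 2 Adnp peaks of Zfp936 with the lowest scores were thus the nearest to HP1γ peaks, and the other 4 scored from 25.5 to 31.1. This order rests on 6 Adnp peaks and was not tested, and the HP1γ list holds only peaks without the Adnp motif.

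The other genes with both kinds of peak had them mostly apart. Zfp407 on chromosome 18 (84207701 to 84589539), a large zinc finger gene, held a 1040 bp HP1γ peak at 84276284 to 84277323, the widest HP1γ peak at any member. It covered an Adnp peak at 84276685 to 84277005 whose score of 6.42 was the lowest of all 84. A second Adnp peak of Zfp407 with a score of 10.4 lay 311 kb away. In Zfp169 on chromosome 13 (48480763 to 48513493) the HP1γ peak at 48484466 to 48484693 was centred 3.82 kb inside the 3′ end, and the Adnp peak, with a score of 36.5, lay upstream of the start and 30.1 kb from it. Zfp592 on chromosome 7 (80993684 to 81045162), whose protein works with Zmynd8 in a chromatin complex, had an HP1γ peak at 81024591 to 81024964, with 11.9 kb to the nearer of its 2 Adnp peaks. Zfp706 on chromosome 15 (36997027 to 37007402), a small gene that acts in the exit from the pluripotent state, had an HP1γ peak at 36997541 to 36997786, and 8.03 kb separated it from the nearer of 2 Adnp peaks, with scores of 25.2 and 14.5. Zfp951 on chromosome 5 (104802246 to 104860157) had its HP1γ peak at 104825495 to 104825698 inside the gene and an Adnp peak of score 12.2 upstream of the start, 37.9 kb apart. In all, 2 of the 16 HP1γ peaks (12.5%) shared at least 1 base with an Adnp peak, against 15.2% of the 1994 autosomal HP1γ peaks.

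A further 5 genes had HP1γ peaks and no Adnp peak. Zfp11 on chromosome 5 (129654595 to 129670088) held 2, at 129657143 to 129657395 and 129657840 to 129658374, centred 2.67 and 3.51 kb inside its 3′ end. Zfp629 on chromosome 7 (127607028 to 127615785) held 2 in its middle, at 127610955 to 127611975 and 127612053 to 127612531; the former is 1021 bp wide. Zfp160 on chromosome 17 (21008941 to 21028857) had 2 peaks just past its 3′ end, centred 0.571 and 0.926 kb beyond it. Zfp938 on chromosome 10 (82224850 to 82241280) had 1, centred 2.40 kb beyond the 3′ end. Zfp36 on chromosome 7 (28376784 to 28379228) encodes tristetraprolin, which marks messages with AU-rich elements for decay; its peak at 28382587 to 28382828 lay 3.48 kb upstream of the start.

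**Figure D1:**
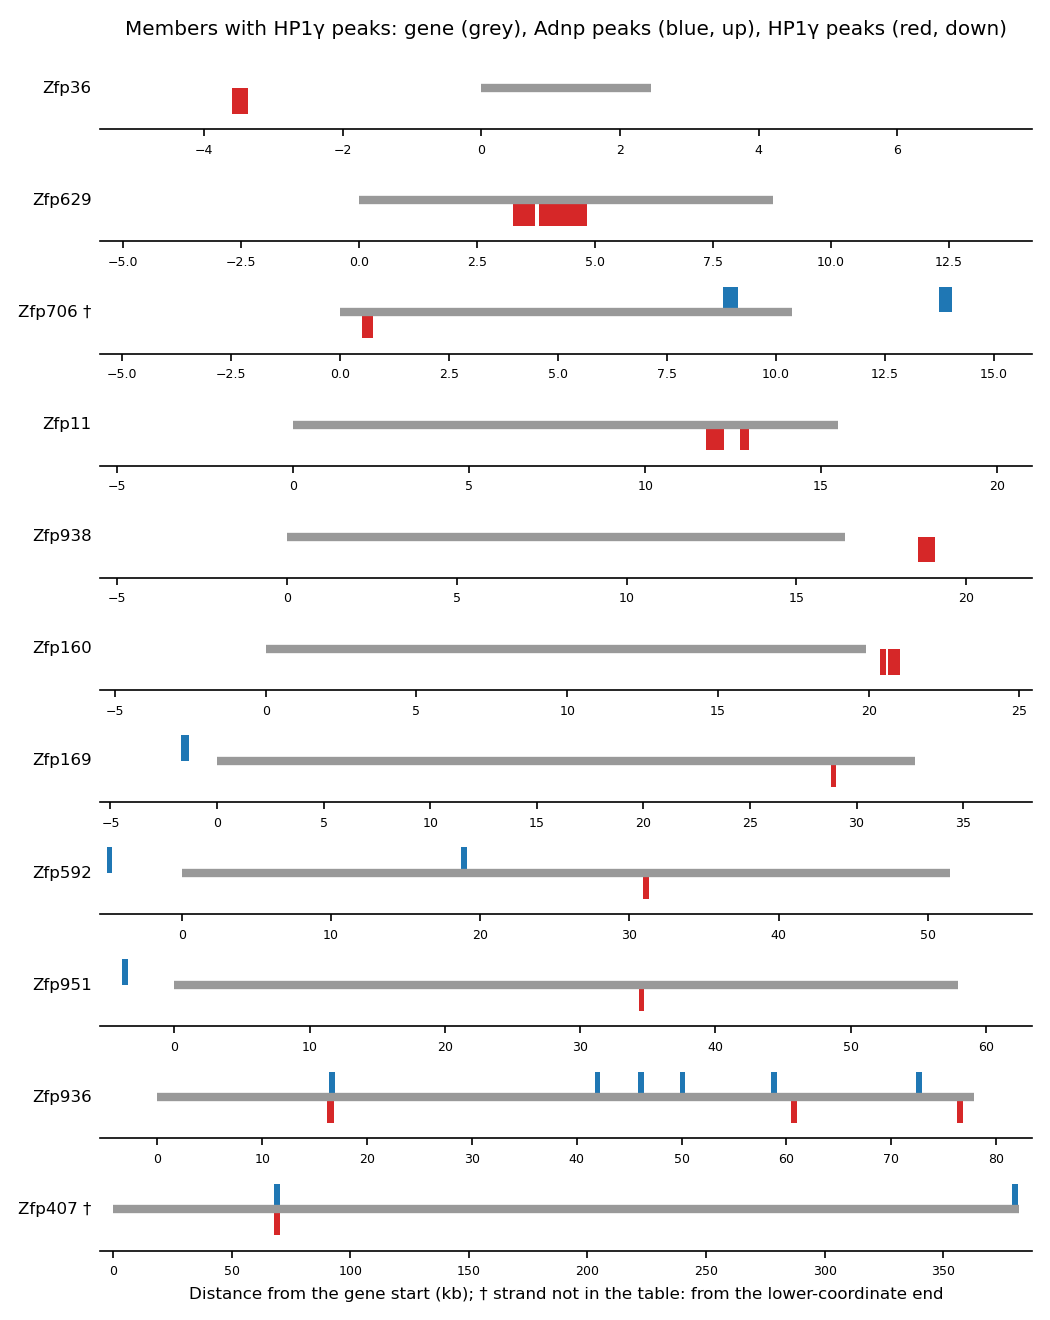
Each row is 1 of the 11 genes with an HP1γ peak, drawn to its own scale in kb from its start (left), or from its lower-coordinate end for Zfp407 and Zfp706, whose strand is not in the table (†), with the gene in grey, Adnp peaks as blue bars above and HP1γ peaks as red bars below; bars narrower than 0.6% of the row are widened to be seen. Peaks of the 2 lists overlap in Zfp936 and Zfp407 and lie apart in Zfp706, Zfp169, Zfp592 and Zfp951.

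HP1γ peaks lay more often toward the 3′ end of these genes than toward the start. The 3′ end of a C2H2 gene commonly holds the last coding exon with the tandem fingers, but exons were not given in the tables used here. A strand was available for 9 of the 11 genes and 14 of the 16 peaks. Of these 14, 1 was centred upstream, 10 within the gene and 3 downstream, and of the 10 within, 1, 2, 2 and 5 lay in the 4 equal parts of the gene, counted from its start. By gene, 6 of 9 had a peak centred within 5 kb of the 3′ end (Zfp11, Zfp160, Zfp169, Zfp629, Zfp936 and Zfp938) and 2 of 9 within 5 kb of the start (Zfp36 and Zfp629). Among the 674 protein-coding genes with a strand and an HP1γ peak, 25.4% had one near the 3′ end and 34.7% near the start. For the clustered zinc finger genes it was 6 and 7 of 17 (35.3% and 41.2%). With 9 genes the counts are small, and the difference was not tested. The 5 peaks in the last part of a gene lie in Zfp11, Zfp169 and Zfp936. By the nearest listed start in place of the 5′ limit, Zfp936 too had a peak near a start, centred 2.70 kb upstream of it. In Zfp629, which is 8.76 kb long, the same stretch lies within 5 kb of both ends.

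Adnp peaks lay more often near the start than near the 3′ end. Of the 64 peaks at genes with a strand, 18 were centred upstream, 36 within and 10 downstream. The 36 within fell as 14, 5, 7 and 10 into the 4 equal parts from the start, so after the first part (38.9%) the last held most (27.8%); all protein-coding genes gave 30.01% in the first and 20.4% in the last. Of the 38 genes concerned, 23 (60.5%) had a peak centred within 5 kb of the start and 8 (21.1%) within 5 kb of the 3′ end, against 43.9% and 33.8% of the 5033 protein-coding genes with a strand and an Adnp peak. The clustered zinc finger genes gave 51.8% and 44.6% (29 and 25 of 56). Within 1 kb of the start, taken as the 5′ limit of the gene, there were 6 Adnp peaks, at Zfp184, Zfp319, Zfp384, Zfp423, Zfp639 and Zfp839. By the nearest listed start, that of Zfp423 was centred 1.70 kb upstream, and a peak each of Zfp638 and Zfp217 0.333 and 0.851 kb upstream. No Adnp peak was centred within 1 kb of the 3′ end. This contrast between the lists was not tested either.

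**Figure D2:**
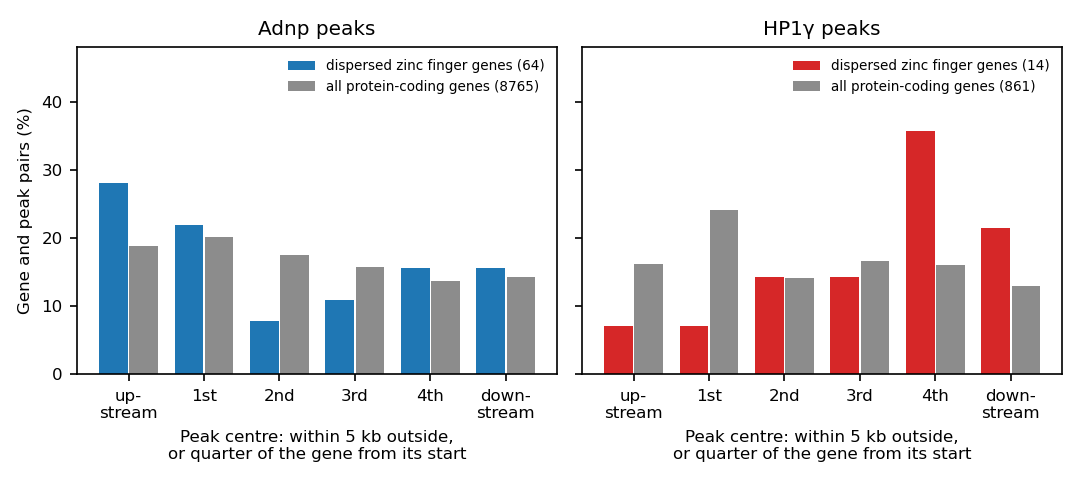
The bars give, for Adnp (left) and HP1γ (right), the percentage of gene and peak pairs centred upstream within 5 kb, in each of 4 equal parts of the gene from its start, or downstream within 5 kb; colour marks the dispersed zinc finger genes, grey all protein-coding genes, and the number of pairs is in the legend. Upstream positions hold 18 of 64 Adnp pairs and the last part of the gene 5 of 14 HP1γ pairs.

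The score that the authors gave each Adnp peak, whose kind is not stated, was used to rank peaks within the list. The 84 peaks scored from 6.42 to 116, with a median of 23.2 (95% interval 16.6 to 27.0 from order statistics) and quartiles of 12.6 and 35.7. The whole list had a median of 21.2 and quartiles of 13.9 and 33.6. Of the 84, 44 (52.4%) were at or above the whole-list median and 11 (13.1%) in the top 10% of the list. The median width was 380 bp (251 to 1177), and 396 bp in the whole list.

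Zfp335 on chromosome 2 (164891882 to 164912585) had the highest score. Its protein acts with histone H3K4 methyltransferase complexes. A peak at 164905941 to 164907117, 1177 bp wide and the widest at any member, scored 116, rank 249 of 15026; a second one upstream, over the antisense gene Zfp335os, scored 32.1. Next came Zfp346 on chromosome 13 (55105271 to 55135071), which encodes a protein that binds double-stranded RNA, with a peak of score 105 at 55123148 to 55123642 inside the gene and another of score 12.6. Zfp423 on chromosome 8 (87661810 to 87962053), a regulator of cerebellar and adipocyte development, held 3 peaks: that at 87960966 to 87961618, 0.761 kb inside the gene's start, scored 103 and the others 18.3 and 9.61. Within Zfp423 the scores thus ran from percentile 8.54 to percentile 97.7 of the list.

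Zfp791 on chromosome 8 (85107168 to 85123095) had 1 peak of score 93.8 at 85101706 to 85102286, 4.88 kb beyond its 3′ end and in no other gene of the table. Zfp341 on chromosome 2 (154611816 to 154646821), a regulator of Stat3 transcription, had 4 peaks with scores of 81.8, 41.5, 15.96 and 15.8, the highest at 154638445 to 154638883 and the one of 15.96 outside, beyond the 3′ end. Zfp654 on chromosome 16 (64780347 to 64851937) held 2, at 64842234 to 64842720 and 64845917 to 64846472, with scores of 81.1 and 63.5. Zfp395 on chromosome 14 (65358676 to 65398930) held 2 with scores of 79.7 and 56.4, the former at 65377470 to 65377952. In Zfp654 and Zfp395 both peaks were in the top 10% of the list.

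Zfp831 on chromosome 2 (174598682 to 174710832) held 1 peak with a score of 56.4. Zfp516 on chromosome 18 (82909688 to 83005314), known from brown fat, held 3, with scores of 54.7, 24.1 and 22.2. Zfp469 on chromosome 8 (122043123 to 122272650), a gene of corneal and connective tissue, held 2, with scores of 52.2 and 31.8. Zfp292 on chromosome 4 (34803110 to 34882983) held 4, with scores of 43.9, 16.7, 11.3 and 10.3; that of 16.7 lay 1.48 kb inside the start. Zfp451 on chromosome 1 (33761541 to 33815602), which encodes a SUMO ligase, held 1 of score 43.4 at 33809981 to 33810344. The high scores of these genes were all inside the gene body.

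Others had their highest peak outside. Zfp358 on chromosome 8 (3493138 to 3497208) had 2 upstream, with scores of 41.3 and 18.2. Zfp512 on chromosome 5 (31452421 to 31481754) had 1 of score 38.7 beyond the 3′ end, 4.99 kb away and inside 4930548H24Rik. Zfp46 on chromosome 4 (136284168 to 136293942) had 2 beyond the 3′ end, with scores of 37.4 and 11.98. Zfp319 on chromosome 8 (95326131 to 95331811) had 2 upstream, with scores of 27.3 and 24.4, both inside its neighbour Usb1, a gene of RNA processing. A peak of score 14.96 beyond the 3′ end of Zfp653 lay inside Elavl3. These 4 were the peaks outside a member that lay inside another protein-coding gene, so they belong to those genes by position.

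Zfp64 on chromosome 2 (168893331 to 168955587) held 3 peaks, 2 of them with scores of 35.8 and 35.7 and the third with 7.39. Zfp148 on chromosome 16 (33380775 to 33503903), a factor of GC-rich promoters, had 1 upstream of score 16.1 and 1 inside of score 17.9. Zfp318 on chromosome 17 (46383515 to 46420920), known for its part in IgD expression of B cells, held 2, with scores of 14.7 and 9.79. Of the 49 genes, 25 had 1 Adnp peak, 18 had 2, 3 had 3, 2 had 4 and 1 had 6. The highest score of a gene had a median of 25.1 over the 25 genes with 1 peak (7.12 to 93.8) and of 36.4 over the 24 with more (10.4 to 116). The highest of several scores tends to exceed a single score by construction, so these medians do not compare peak strength. Zfp936, with the most peaks, had a top score of 31.1.

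The remaining genes with an Adnp peak were Zfp106, Zfp113, Zfp207, Zfp217, Zfp296, Zfp326, Zfp384, Zfp488, Zfp536, Zfp57, Zfp574, Zfp609, Zfp664, Zfp704, Zfp710, Zfp800, Zfp808, Zfp827 and Zfp90. Their scores ran from 7.12 at Zfp57 to 37.0 at Zfp827, a gene whose protein brings the NuRD complex to telomeres.

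**Figure D3:**
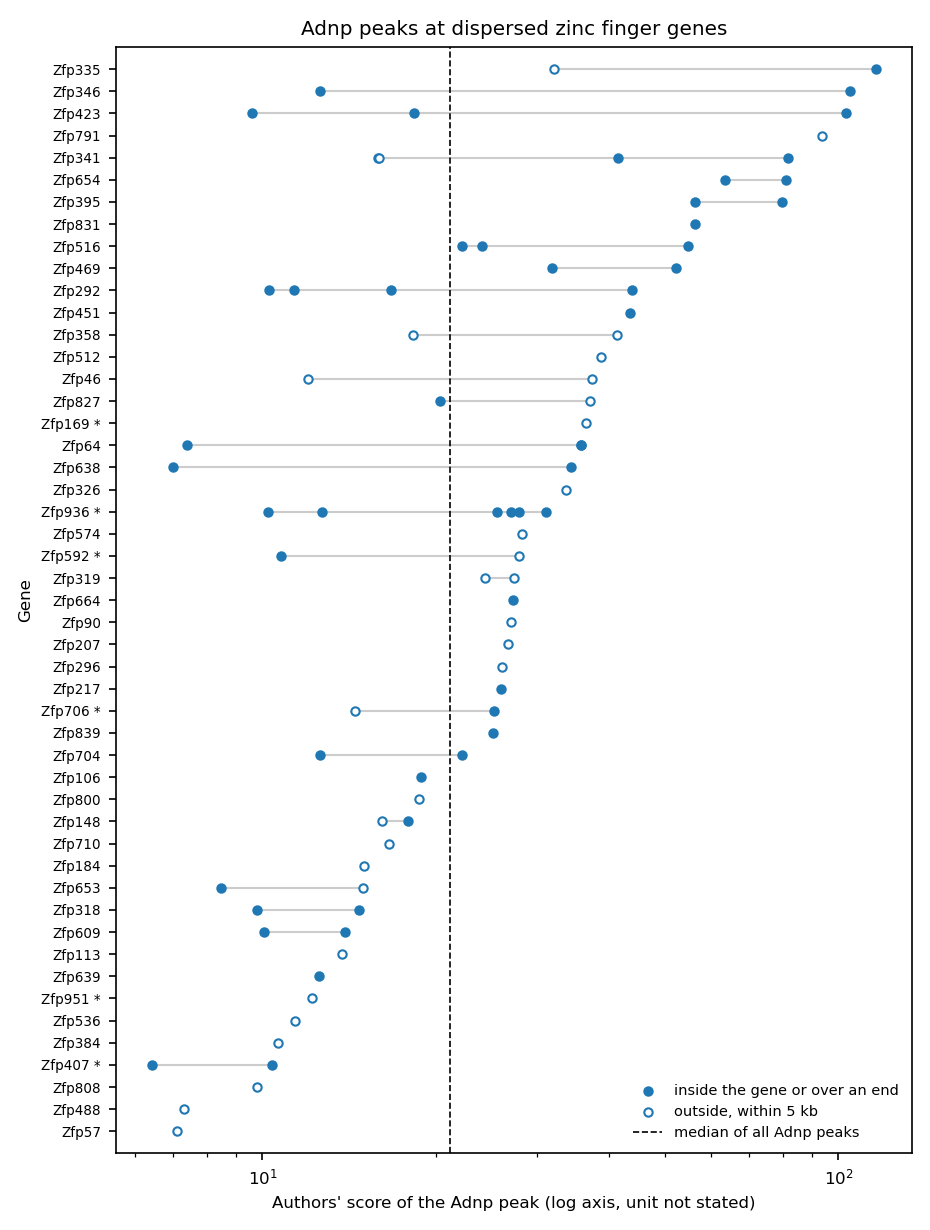
Each row is 1 of the 49 genes with an Adnp peak, sorted by its highest score, and each point is a peak at the authors' score on a log axis; filled points touch the gene, open points lie outside within 5 kb, and an asterisk marks the 6 genes that also have an HP1γ peak. The dashed line is the whole-list median of 21.2, and the points run from 6.42 at Zfp407 to 116 at Zfp335.

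Adnp peaks were more frequent at members of 30 kb or more than at shorter ones, and the stretch in which peaks are counted grows with gene length. HP1γ peaks, which lay at 11 genes, showed no such order. Genes with an Adnp peak had a median length of 39.3 kb and those without 17.4 kb; for HP1γ the medians were 19.9 and 20.2 kb. By length class, 6 of 25 genes under 10 kb had an Adnp peak (24.0%, Wilson interval 11.5% to 43.4%), 15 of 81 from 10 to 30 kb (18.5%, 11.6% to 28.3%), 17 of 28 from 30 to 100 kb (60.7%, 42.4% to 76.4%) and 11 of 18 of 100 kb or more (61.1%, 38.6% to 79.7%). All protein-coding genes gave 15.1%, 31.6%, 42.8% and 49.5% in the same classes. The dispersed share was below that of all genes in the 10 to 30 kb class, which holds 81 of the 152 genes. It was above that of all genes in the other classes, and these differences were not tested. HP1γ peaks lay at 2, 4, 4 and 1 genes of the 4 classes, or 8% (Wilson interval 2.22% to 25.0%), 4.94% (1.94% to 12.02%), 14.3% (5.70% to 31.5%) and 5.56% (0.988% to 25.8%), against 1.36%, 3.47%, 5.67% and 10.7% of all genes. The dispersed HP1γ share was above that of all genes in each class below 100 kb and below it in the longest class. Each share rests on at most 4 genes, and these differences were not tested either. Zfp536, the longest member at 456 kb, had a single Adnp peak, which lay outside its 3′ end, and Zfp521, with 286 kb, had none.

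**Figure D4:**
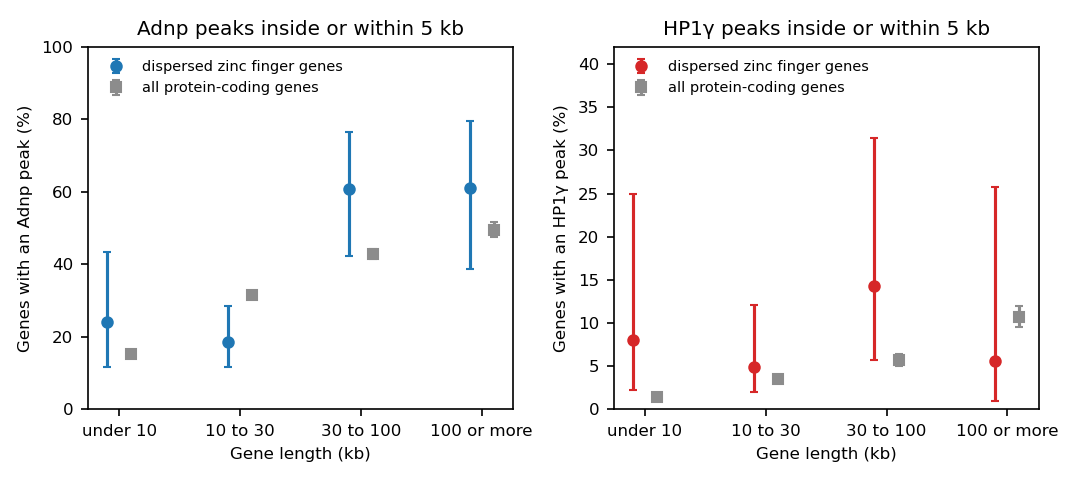
Points give the percentage of genes with an Adnp (left) or HP1γ (right) peak inside or within 5 kb, by gene length in kb, for dispersed zinc finger genes (circles) and all protein-coding genes (squares), with 95% Wilson intervals. For Adnp the dispersed genes go from 18.5% in the 10 to 30 kb class to 60.7% in the next.

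Of the 11 members listed for roles in stem cells, 6 had an Adnp peak, set beside 30.4% of all protein-coding genes without a test. Zfp57 on chromosome 17 (37001163 to 37010729) encodes the KRAB protein that guards imprinted methylation. A peak of score 7.12, rank 14677 of 15026, lay 1.60 kb upstream of its start. Zfp296 on chromosome 7 (19577287 to 19580656), a factor of embryonic stem cells, had 1 of score 26.0, centred 3.19 kb upstream. Zfp207 on chromosome 11 (80383279 to 80408561), whose protein binds kinetochores and RNA, had 1 of score 26.7, 4.64 kb upstream. Zfp217 on chromosome 2 (170108643 to 170151677), a partner of corepressors, had 1 of score 25.9 inside the gene, 0.851 kb upstream of a second listed start. Zfp148 and Zfp706 are given above. No peak of either list lay at Zfp42 on chromosome 8 (43295067 to 43307009), the pluripotency marker also called Rex1, or at Zfp281 on chromosome 1 (136624901 to 136630391), a partner of Nanog. Zfp143 on chromosome 7 (110061689 to 110095396), Zfp462 on chromosome 4 (54944491 to 55083563) and Zfp521 on chromosome 18 (13687013 to 13972749) had none either.

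Of 6 members among developmental regulators 2 had an Adnp peak, Zfp423 and Zfp536 (all protein-coding genes 30.4%, not tested). The peak of Zfp536 on chromosome 7 (37318023 to 37774039), a brake on neuronal differentiation, scored 11.4. Zfp503 on chromosome 14 (21983959 to 21989601) and Zfp703 on chromosome 8 (26977336 to 26981462), a related pair of corepressors, had no peak, nor did Zfp462 and Zfp521. Of the 6 listed silencers of retroelements or imprinted loci, Zfp57 is the only dispersed one; Zfp568, Zfp708, Zfp809, Zfp819 and Zfp932 are clustered.

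Of the 5 members listed for RNA binding or CCCH proteins, 3 had an Adnp peak. The list is not complete, since Zfp346, given above, is not on it. Zfp106 on chromosome 2 (120506820 to 120563864), needed by motor neurons, had 1 of score 18.8, 1.53 kb inside its start. Zfp326 on chromosome 5 (105876556 to 105915818), a subunit of a complex that couples splicing to transcription, had 1 of score 33.6 downstream of its 3′ end. The third is Zfp207. Zfp598 on chromosome 17 (24669687 to 24682023), a ubiquitin ligase for collided ribosomes, had no peak, and Zfp36 only the HP1γ peak. Among 8 genes of general transcription or chromatin roles, 4 had an Adnp peak: Zfp335, Zfp384, Zfp451 and Zfp592. That of Zfp384 on chromosome 6 (125009017 to 125037870) scored 10.6 and lay 0.568 kb upstream of the start. Zfp143, Zfp91 on chromosome 19 (12766939 to 12796123), Zfp687 on chromosome 3 (94994674 to 95015948) and Zfp532 on chromosome 18 (65580230 to 65689443) had none. Zfp532, Zfp592 and Zfp687 are related genes whose proteins bind Zmynd8, and of these Zfp592 alone had peaks. These lists are short, were chosen with earlier results known, and their shares are set beside the 30.4% of all protein-coding genes without a test. Zfp57, Zfp143, Zfp207, Zfp462 and Zfp521 each stand in more than 1 list, so the counts are not separate.

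For comparison, of 9 genes of the ChAHP complex, HP1 proteins and their silencing partners, 6 had an Adnp peak: Pogz with 4 and a top score of 65.5, Cbx1 and Cbx5 with 2 each (38.9 and 21.5), and Setdb1, Cbx3 and Adnp with 1 each (19.2, 14.7 and 14.5). Chd4, Trim28 and Adnp2 had none, and no HP1γ peak lay at any of the 9. These genes were listed for their roles, and their shares too stand beside the 30.4% (Adnp) and 4.06% (HP1γ) of all protein-coding genes without a test.

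By chromosome, the members ran from 2 on chromosomes 16 and 19 to 17 on chromosome 7. On the 6 chromosomes with 10 or more members, Adnp peaks lay at 6 of 13 on chromosome 2 (46.2%, against 26.2% of all protein-coding genes there), 2 of 13 on chromosome 4 (15.4%, against 33.4%) and 5 of 11 on chromosome 5 (45.5%, against 38.6%). The others were 6 of 17 on chromosome 7 (35.3%, against 24.2%), 7 of 16 on chromosome 8 (43.8%, against 41.3%) and 1 of 10 on chromosome 11 (10%, against 34.8%). The remaining 13 chromosomes together held 72 members, 22 of them with an Adnp peak. Among the 11 genes with an HP1γ peak were 4 of the 17 members on chromosome 7 (Zfp36, Zfp592, Zfp629 and Zfp936), or 23.5%, against 3.41% of all protein-coding genes there. Chromosome 7 was singled out after its values were seen. The numbers per chromosome are small and were not tested.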

How the data were processed

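The values used were 2 peak lists without header lines. The submitters' processing notes name MACS2, edgeR, STAR 2.5.0a, Bowtie 1.0.0 and bcl2fastq 1.17, and the build mm10 (GRCm38). Which tool made which file, and with what settings, is not given in the sources used here. Adnp peaks carry a score deposited by the authors, of unstated kind; in the HP1γ list the deposited score is 0 throughout. A peak passes or misses a caller's limit, so its absence does not show that the protein is absent.

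Genes, starts and ends came from a GRCm38.p6 RefSeq table (genes starting at 3 Mb or later), and strands and promoters from a RefSeq promoter table. A peak counted if any base lay in a gene or within 5 kb of its ends. Every member with a peak was to be named, and details given for high scores, many peaks, HP1γ peaks and the role lists; members and lists were chosen with earlier results of these data known. Start means the 5′ limit of the gene. A planned count of fingers in the proteins was not made. No tests were made; intervals are 95% Wilson (shares) or exact Poisson (densities) and cover counting error only. The overlap functions were tested on simulated data. The software was pandas 2.3.3, SciPy 1.17.1 and NumPy 2.4.6 under Python 3.11.15, with figures by matplotlib 3.10.9. The other assays of the series were not analysed here.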

Additional observations from a re-analysis of the deposited data

How the results depend on the processing

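The counts moved with the window around the gene. With peaks inside the gene alone, 28 genes had an Adnp peak in place of 49 (18.4%, all protein-coding genes 21.5%). With a window of 20 kb, 77 had an Adnp peak, 19 an HP1γ peak and 15 both (50.7%, 12.5% and 9.87%, against 45.5%, 7.14% and 4.84% of all genes). With only Adnp peaks at or above the median score, 32 genes had a peak (21.1%, against 19.2%). The highest peak of each gene had a median score of 27.2, above the interval of the median over all peaks. Taking the highest peak raises the median by construction. The counts stayed within 1.5 times with a window of 1 kb, distances of 50 and 200 kb to the next Zfp gene, distances to Zfp genes of any type, peak centres, and peaks within 10 kb joined (68 Adnp and 13 HP1γ regions). They also did so without the 7 genes that have another zinc finger symbol or synonym within 100 kb (46, 11 and 6), an alternative chosen after seeing the data. The shares still moved within that limit. With a window of 1 kb, 33 genes had an Adnp peak (21.7%, all protein-coding genes 23.7%). The HP1γ share was 8.14% with a distance of 50 kb, 7.24% with 100 kb and 5.97% with 200 kb, against 4.06% of all genes. No paired analysis was possible because both lists are pooled over replicates; for the same reason no replicate could be left out.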
